A study of Mus musculus with 7 samples.

Results

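The genes described here encode the matrix metalloproteinases (MMPs), the membrane-bound ADAM proteases, the secreted ADAMTS proteases with their ADAMTS-like relatives, and the tissue inhibitors of metalloproteinases (TIMPs), in mouse incisors from which Yap and Taz had been deleted. The tissue was the labial cervical loop, the epithelial stem cell niche at the base of the incisor. Members were all array probes whose gene symbol belongs to these families, leaving out the enamel protease gene Mmp20. They comprised 98 of 25697 probes and 68 of 18138 gene symbols, with 21 MMP, 26 ADAM, 14 ADAMTS, 3 ADAMTS-like and 4 TIMP genes. Control mice had the genotype Yap/Tazf/f, so both genes carried floxed alleles. Mutant mice, K14CreER;Yap/Tazf/f, had the same alleles with a tamoxifen-activated Cre driven by the keratin 14 promoter, which is active in epithelium. No control carried the Cre, so an effect of the Cre and an effect of the deletion cannot be told apart. Mice of both genotypes, 8 weeks old, were given 5 mg tamoxifen per day for 2 days, and tissue was collected 48 hours after the last dose. There were 3 control and 4 mutant samples, each with its own Illumina array on 1 of 2 BeadChips, the first with 2 control and 2 mutant arrays and the second with 1 control and 2 mutant arrays. The labels do not say whether a sample was 1 animal or a pool, so the p-values cover the spread among these arrays, which may be technical.

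MMPs cut collagens and other matrix proteins, and most are made as inactive precursors that other proteases activate. ADAMs release the outer parts of membrane proteins such as growth factors and receptors, ADAMTS proteases trim procollagens and proteoglycans, and TIMPs block the active site of these enzymes. In teeth these proteases are known for remodelling the basement membrane and for matrix processing during enamel and dentin formation.

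On each array a probe counted as detected at a detection p-value under 0.05 against that array's negative control beads. Arrays detected 13767 to 14752 probes at median intensities of 80.8 to 86.2, with 14 to 59 beads averaged for each member probe, and the number of arrays limits the precision. All 11 dental epithelium markers on the array, Krt14 and Krt5 among them, were detected on at least 3 arrays, and of 9 endothelial markers Cldn5, Esam and Tie1 were so detected while Pecam1, Kdr, Tek, Vwf and Emcn were detected on none. Of the deleted genes, Yap1 fell by 0.68 (log2 intensity, SE 0.12, adjusted p = 0.0443 in limma), with all 4 mutant arrays (6.36 to 6.96) below the 3 control arrays (7.16 to 7.37). The Yap1 call was near the threshold and was lost wherever 0 probes of the array were called lower. This was so with no detection filter, no background correction or control replicate 2 left out, where 0 probes were called. It was also so with median scaling, on the first chip alone, and with control replicate 3 or mutant replicate 2 left out. Wwtr1, the gene of TAZ, differed by -0.15 (SE 0.14, limma adjusted p = 0.819). Its probe was dim, at 4.53 to 4.91 on the control arrays, so it had little room to fall even with the transcript lost.

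Some promoters of these genes were of contrasting kinds, and examples are shown because the kinds ran beside the detection described next. The kinds did not part the genes fully, since Mmp13, shown with the undetected Mmp3 and Mmp10, was detected on all 7 arrays. RefSeq promoters of GRCm38.p6 were given for 41 of the 68 genes, in 44 windows, and the 250 bases before each gene start were searched on both strands. Shown first are 3 genes of the MMP cluster on chromosome 9, where Mmp13, Mmp12, Mmp1b, Mmp3, Mmp1a, Mmp10, Mmp8, Mmp27 and Mmp7 neighbour one another. Capitals mark the letters TGANTCA, bound by AP-1 (Jun and Fos factors), and TATAAA, the TATA box.
Mmp13, GRCm38.p6 chr9:7272264-7272513, + strand: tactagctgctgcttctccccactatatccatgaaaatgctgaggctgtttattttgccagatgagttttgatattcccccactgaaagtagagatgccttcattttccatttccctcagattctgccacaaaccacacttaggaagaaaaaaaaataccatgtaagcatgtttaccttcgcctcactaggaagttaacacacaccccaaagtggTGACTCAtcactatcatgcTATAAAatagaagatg
Mmp3, GRCm38.p6 chr9:7445572-7445821, + strand: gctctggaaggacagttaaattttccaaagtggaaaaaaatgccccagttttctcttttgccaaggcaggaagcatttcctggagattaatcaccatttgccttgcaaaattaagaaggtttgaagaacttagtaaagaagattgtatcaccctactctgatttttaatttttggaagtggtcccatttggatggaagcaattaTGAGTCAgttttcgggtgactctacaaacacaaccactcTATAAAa
Mmp10, GRCm38.p6 chr9:7502092-7502341, + strand: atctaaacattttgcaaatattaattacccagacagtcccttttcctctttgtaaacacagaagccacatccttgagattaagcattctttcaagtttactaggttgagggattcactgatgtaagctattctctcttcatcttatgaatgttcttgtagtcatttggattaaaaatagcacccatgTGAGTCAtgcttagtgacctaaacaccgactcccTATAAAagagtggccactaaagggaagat
In each of the 3 the AP-1 letters lay before the TATA box, starting 35 bases before the gene start in Mmp13, 46 in Mmp3 and 63 in Mmp10.

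The next promoters belong to detected genes outside the cluster, the membrane collagenase Mmp14, the inhibitor Timp2 and the sheddase Adam17. Capitals mark GGGCGG, the GC box bound by Sp1.
Mmp14, GRCm38.p6 chr14:54431348-54431597, + strand: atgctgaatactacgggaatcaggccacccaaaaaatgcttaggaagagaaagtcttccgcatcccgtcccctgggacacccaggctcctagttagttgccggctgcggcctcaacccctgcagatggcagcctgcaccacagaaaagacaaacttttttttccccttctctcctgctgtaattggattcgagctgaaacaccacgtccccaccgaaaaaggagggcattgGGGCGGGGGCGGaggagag
Timp2, GRCm38.p6 chr11:118355412-118355661, - strand: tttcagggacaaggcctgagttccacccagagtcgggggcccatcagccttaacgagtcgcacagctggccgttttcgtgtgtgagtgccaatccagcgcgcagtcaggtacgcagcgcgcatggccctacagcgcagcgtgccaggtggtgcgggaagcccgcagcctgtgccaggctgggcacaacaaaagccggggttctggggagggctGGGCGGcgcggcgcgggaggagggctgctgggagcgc
Adam17, GRCm38.p6 chr12:21373633-21373882, - strand: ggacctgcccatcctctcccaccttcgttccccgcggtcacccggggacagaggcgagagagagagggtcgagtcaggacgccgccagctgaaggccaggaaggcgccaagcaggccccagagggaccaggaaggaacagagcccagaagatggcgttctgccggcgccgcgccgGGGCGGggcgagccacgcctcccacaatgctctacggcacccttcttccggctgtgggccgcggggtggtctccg
The 2 GC boxes of Mmp14 lie side by side, and none of the marked motifs overlapped another. Bases G and C made up 55.2% of the Mmp14 window, 68.0% for Timp2 and 70.4% for Adam17, against 40.4% for Mmp13, 37.6% for Mmp3 and 37.2% for Mmp10.

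Over the MMP cluster, AP-1 letters stood in 7 of 11 windows (63.6%), TATA boxes in 6 of 11 (54.5%) and GC boxes in 0 of 11. Over all 32851 promoter windows of the table these shares were 6.75%, 12.4% and 32.7%. Of the 24 windows of members detected on at least 3 arrays, 17 (70.8%) held a GC box and 2 (8.33%) the AP-1 letters, which were those of Mmp13 and Mmp1a. Of the 20 windows of the other members, 3 (15.0%) held a GC box and 7 (35.0%) the AP-1 letters. Outside the cluster the GC box stood in 17 of 22 windows (77.3%) of detected and 3 of 11 (27.3%) of other members. These shares were not computed for detected and undetected genes of the whole array, so the contrast may not be particular to these families. Windows such as those of Adam23 and Mmp8 held none of these motifs, and that of Adamts1 held both a GC box and a TATA box. The motifs were chosen with the detection known, and a match of letters is a description, not a binding site.

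The letters GGAATG, recognised by the TEAD factors through which YAP and TAZ reach DNA, were found in 2 of 44 member windows (4.55%) against 12.6% of all windows. They belonged to Adamts13 and Timp1, and the Timp1 window is printed with these letters and its GC box, here on the opposite strand, in capitals.
Timp1, GRCm38.p6 chrX:20869916-20870165, + strand: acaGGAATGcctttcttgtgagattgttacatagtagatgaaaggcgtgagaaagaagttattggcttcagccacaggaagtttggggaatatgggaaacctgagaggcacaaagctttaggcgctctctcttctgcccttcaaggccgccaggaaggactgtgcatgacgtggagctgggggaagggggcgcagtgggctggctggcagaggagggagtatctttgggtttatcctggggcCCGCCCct

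Fewer of these genes were measurable than of the array as a whole, and the shortfall lay in the ADAM class. Of 68 genes, 32 (47.1%) had a probe detected on at least 3 arrays, against 57.8% of all 18138 symbols, and 21 of them had a probe detected on all 7 arrays. A further 12 genes were detected on 1 or 2 arrays and 24 on none. By class, 12 of 21 MMP genes (57.1%), 7 of 26 ADAM genes (26.9%) and 8 of 14 ADAMTS genes (57.1%) were detected on at least 3 arrays. So were 2 of 3 ADAMTS-like genes and 3 of 4 TIMP genes. Of the ADAM genes known chiefly from the reproductive tract, 1 of 15 (6.67%) was so detected.

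**Figure D1:**
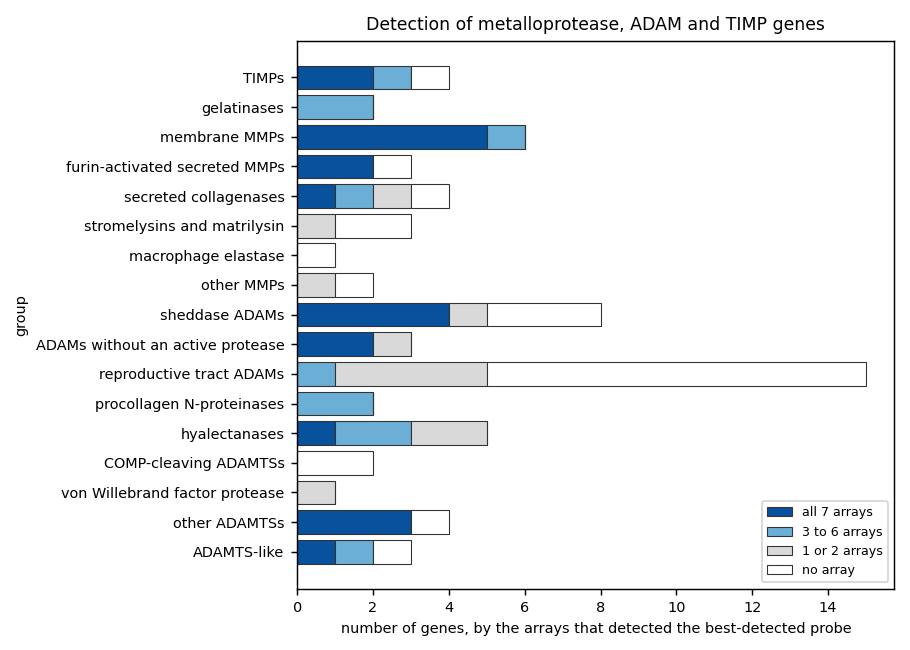
Number of genes (horizontal axis) in each functional group, by how many of the 7 arrays detected the best-detected probe of the gene. All 6 membrane MMPs reached at least 3 arrays, while 1 of 15 reproductive tract ADAMs did.

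By role, all 6 membrane MMP genes (Mmp14, Mmp15, Mmp16, Mmp17, Mmp23 and Mmp24) reached at least 3 arrays, and 5 of them all 7. Both gelatinase genes, Mmp2 and Mmp9, and both genes of procollagen N-proteinases, Adamts2 and Adamts3, reached 3 to 6 arrays. The stromelysin genes Mmp3 and Mmp10 and the macrophage elastase gene Mmp12 were detected on no array, and the matrilysin gene Mmp7 on 1. Of the 15 ADAM genes known chiefly from testis and epididymis, such as the fertilin gene Adam2, only Adam4 reached 3 arrays, 4 (Adam1b, Adam7, Adam26a and Adam32) were detected on 1 or 2 arrays and 10 on none. The ADAMs Adam12, Adam28 and Adam33, the cartilage-matrix proteases Adamts7 and Adamts12, and Timp4, Mmp1b, Mmp21, Mmp27, Adamts16 and Adamtsl2 were also detected on no array. Mmp8, Mmp19, Adam8, Adam11, Adamts8, Adamts13 and Adamts20 were seen on 1 or 2 arrays. A probe that was not detected gives only a bound on its gene's level at this sensitivity.

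The 41 member probes detected on at least 3 arrays were tested for a difference between mutant and control loops, in 1 fit over all 14666 such probes of the array with the chip as a term. Differences are mutant minus control on the log2 scale of normalised intensity, and p-values are adjusted by the Benjamini-Hochberg method over all of these probes. Limma called 0 of the 41 at an adjusted p under 0.05, with a background of 0.0614% (9 probes, 5 higher and 4 lower). The smallest adjusted p among members was 0.476. At an unadjusted p under 0.05 there were 4 member probes (9.76%), of Adam4, Adamts2 and Timp2, against a background of 8.00%. Of these, 3 were higher, against a background of 4.32%, and 1 was lower, against a background of 3.69%, so the members' counts were near those of the array as a whole. Among the 3 higher ones, an Adamts2 probe met the detection filter through mutant arrays alone and an Adam4 probe chiefly through them. The median difference was -0.0019 over the 41 member probes and 0.00025 over all tested probes, and 20 member differences were positive and 21 negative. The 95% interval lay within 0.5 of 0 on both sides for 34 of the 41 probes (82.9%, against 90.6% of all tested probes). No interval reached below -0.55 or above 0.58. The offset of the background correction compresses differences of dim probes. Control means were 4.51 for Mmp9 and 4.55 for Mmp2, against 4.16 for Mmp12, which was detected on no array, and 8.43 for Mmp14. Dim probes had little room to fall even with their transcript lost, so their narrow intervals do not exclude a large fall in transcript.

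**Figure D2:**
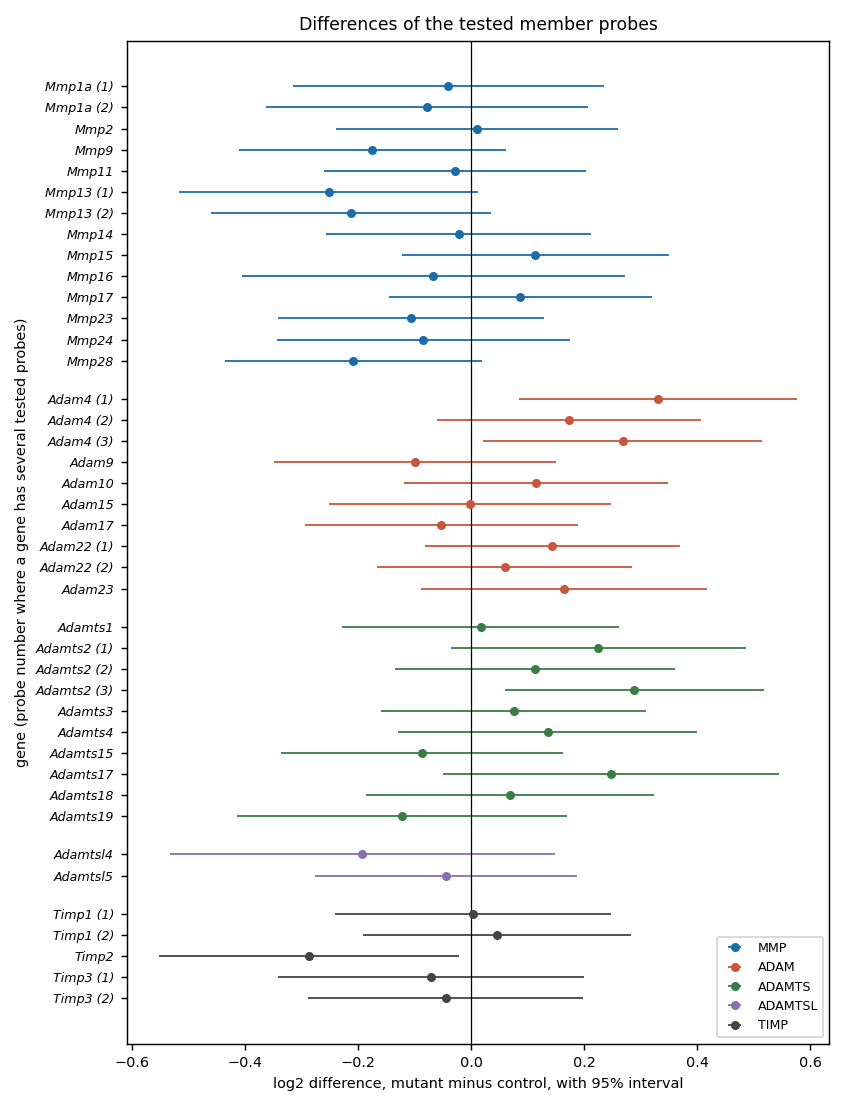
Log2 difference, mutant minus control, of each tested member probe (points, coloured by class) with its 95% interval from limma (lines). The differences run from -0.29 for Timp2 to 0.33 for an Adam4 probe, and 4 intervals, of 2 Adam4 probes, 1 Adamts2 probe and Timp2, do not include 0.

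By class, the median difference was -0.072 over 14 MMP probes (3 positive, 11 negative), 0.13 over 10 ADAM probes (7 positive, 3 negative), 0.094 over 10 ADAMTS probes (8 positive, 2 negative), -0.12 over 2 ADAMTS-like probes (0 positive) and -0.045 over 5 TIMP probes (2 positive). Median scaling in place of quantile normalisation, which moved the median of all tested probes to 0.068, gave 5 of 14, 10 of 10, 8 of 10, 1 of 2 and 4 of 5 positive, and turned the TIMP median to 0.017. Probes of 1 gene share their transcript, and no class had a probe that passed the test. In the 7 genes with more than 1 tested probe, the probes of a gene had the same sign. Among these, 1 Adamts2 probe met the detection filter through mutant arrays alone and 2 Adam4 probes chiefly through them. Entry by that route favours a positive difference, here and in the class counts above.

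**Figure D3:**
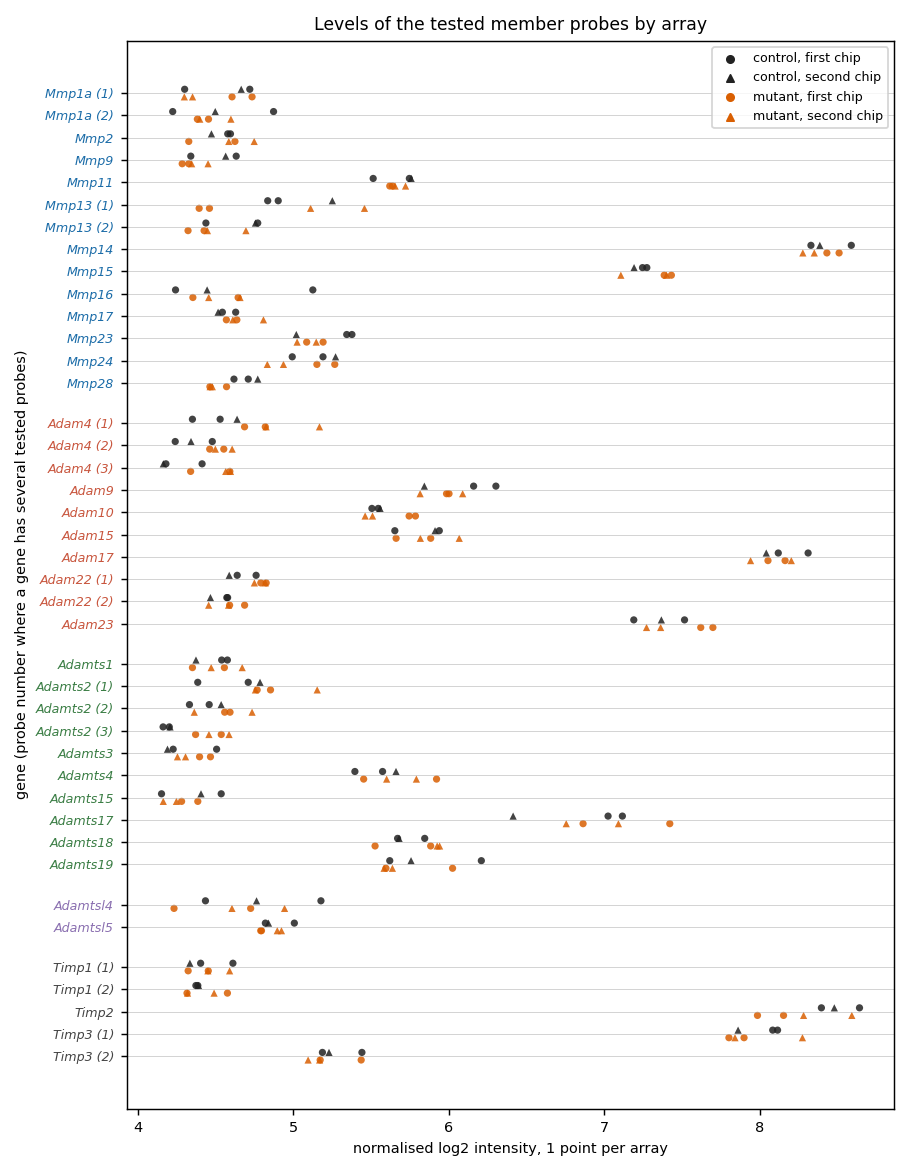
Normalised log2 intensity (horizontal axis) of each tested member probe on each of the 7 arrays, with control arrays in black, mutant arrays in orange, circles for the first chip and triangles for the second. The genotypes lay apart for 1 probe each of Adam4, Adamts2 and Mmp28 and interleaved for the rest.

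Among the inhibitors, Timp2 had the only member probe that was lower at an unadjusted p under 0.05. TIMP2 inhibits MMPs and also takes part in the activation of MMP2 on the cell surface by the membrane collagenase MMP14. Timp2 measured 8.64, 8.40 and 8.48 on the control arrays and 7.99, 8.15, 8.28 and 8.59 on mutant replicates 1 to 4. Mutant replicates 1, 2 and 3 lay below all controls and mutant replicate 4 lay among them. The difference of -0.29 (SE 0.13, 95% interval -0.55 to -0.022, unadjusted p = 0.0355) did not pass (limma adjusted p = 0.583), and chip 1 gave -0.45 and chip 2 -0.043. The authors' deposited table gives Timp2 a q-value of 0.309.

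Timp3, the inhibitor that binds the matrix and also blocks ADAM17, had 2 tested probes. ILMN_2741096 measured 8.11, 8.08 and 7.86 in control and 7.80, 7.90, 7.84 and 8.27 in mutant arrays, a difference of -0.070 (95% interval -0.34 to 0.20), with -0.25 from chip 1, 0.20 from chip 2 and 0.051 after median scaling. ILMN_2614759 differed by -0.045 (95% interval -0.29 to 0.20), and by 0.017 after median scaling. The genotypes overlapped on both probes. Timp1, an inducible secreted inhibitor, was detected on 5 and 3 arrays by its probes, which differed by 0.0027 (95% interval -0.24 to 0.25) and 0.046 (95% interval -0.19 to 0.28). In the RefSeq annotation of GRCm38.p6, Timp1, Timp3 and Timp4 each lie within a synapsin gene (Syn1, Syn3 and Syn2).

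Mmp14, the membrane collagenase that activates MMP2, was detected on all 7 arrays. It measured 8.59, 8.33 and 8.39 in control and 8.51, 8.43, 8.35 and 8.28 in mutant arrays, and the genotypes overlapped. Its difference of -0.022 had a 95% interval of -0.26 to 0.21 (limma adjusted p = 0.975), and it was 0.10 after median scaling. Of the other membrane MMPs, Mmp15 differed by 0.11 (95% interval -0.12 to 0.35), Mmp17, which is held by a lipid anchor, by 0.087, Mmp23 by -0.11 and Mmp24 by -0.085. For Mmp24 chip 1 gave 0.12 and chip 2 -0.39, where mutant replicates 3 and 4 stood at 4.94 and 4.83 against 5.27 in the only control. None of these genes passed the test.

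The gelatinases cut denatured collagen and the collagen of basement membranes. Mmp2 measured 4.58, 4.60 and 4.47 in control and 4.62, 4.33, 4.59 and 4.75 in mutant arrays, a difference of 0.011 (95% interval -0.24 to 0.26). Mmp9, strongly made by osteoclasts and neutrophils, measured 4.63, 4.34 and 4.57 in control and 4.33, 4.29, 4.45 and 4.35 in mutant arrays and was detected on 3 arrays. Its difference of -0.17 (95% interval -0.41 to 0.062) was much the same by chip (-0.18 and -0.17) and did not pass (limma adjusted p = 0.721). Beside it, the mean level of the osteoclast markers ran from 4.54 to 4.59 in control and 4.48 to 4.60 in mutant arrays, over the 2 of 6 on the array that could be tested, with summed levels of 9.09 to 9.19 and 8.96 to 9.20, and Ctsk, Calcr, Itgb3 and Atp6v0d2 were detected on no array. The part of osteoclasts in the Mmp9 value was not tested. In such bulk tissue, fewer cells of a type and less RNA per cell cannot be told apart.

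Mmp13, the collagenase of bone and cartilage cells, had 2 tested probes, both lower in the mutant mean. ILMN_2737685 measured 4.90, 4.84 and 5.25 in control and 4.39, 4.46, 5.46 and 5.11 in mutant arrays. On the first chip both mutant arrays lay below both controls, and on the second chip 1 mutant array lay above and 1 below the control, so that chip 1 gave -0.44 and chip 2 0.033. With the chip as a term it was -0.25 (SE 0.13, limma adjusted p = 0.633). ILMN_2799267 differed by -0.21 (SE 0.12, limma adjusted p = 0.669), with -0.23 and -0.19 on the chips, and 1 more probe was detected on no array. Beside it, the mean level of 7 tested odontoblast and osteoblast markers was 4.87, 5.27 and 4.89 on the control arrays and 5.44, 4.89, 5.59 and 5.69 on mutant replicates 1 to 4, with summed levels of 34.1 to 36.9 in control and 34.3 to 39.8 in mutant arrays and Dmp1 detected on no array. Of these 7, 6 were positive, with a median difference of 0.28. How far these cells enter the Mmp13 values was not tested.

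The other secreted MMPs gave 1 probe at which the genotypes lay apart. Mmp28, epilysin, an MMP of keratinocytes and other epithelia, measured 4.71, 4.62 and 4.77 in control and 4.46, 4.57, 4.46 and 4.48 in mutant arrays. All 4 mutant arrays lay below the 3 controls, and in 3 member probes (7.32%) the genotypes lay apart in this way in either direction, against a background of 6.55% of all tested probes. They were 2 higher probes, with a background of 3.28%, and this lower one, with a background of 3.27%. Of the higher ones, the Adamts2 probe met the detection filter through mutant arrays alone. The Mmp28 difference of -0.21 (SE 0.11, 95% interval -0.44 to 0.020) was -0.15 for chip 1 and -0.30 for chip 2 and did not pass (limma adjusted p = 0.650). A second Mmp28 probe was detected on no array. Mmp11, which furin activates inside the cell, and the mouse collagenase gene Mmp1a were tested as well. The signal of Mmp1a is uncertain, since it was not tested whether its probes also match the related gene Mmp1b. The Mmp1b probe was detected on no array.

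The sheddase genes Adam9, Adam10, Adam15 and Adam17 were detected on every array, and none passed the test. Adam17, which releases TNF and ligands of the EGF receptor, measured 8.12, 8.31 and 8.04 in control and 8.16, 8.05, 8.20 and 7.94 in mutant arrays, a difference of -0.052 (95% interval -0.29 to 0.19, limma adjusted p = 0.937), or 0.078 after median scaling. Adam10, which cuts Notch receptors and cadherins, measured 5.51, 5.55 and 5.56 in control and 5.74, 5.79, 5.51 and 5.46 in mutant arrays. Mutant replicates 1 and 2 lay above all controls and mutant replicate 4 below them, and the difference of 0.11 (95% interval -0.12 to 0.35) was 0.24 within chip 1 and -0.072 within chip 2. Adam9, a sheddase with a wide tissue range, differed by -0.099 (95% interval -0.35 to 0.15), or 0.0027 after median scaling.

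Of the ADAMs that lack protease activity and act as receptors for LGI proteins, Adam22 had probes at 0.14 (95% interval -0.082 to 0.37) and 0.059. Adam23 measured 7.19, 7.52 and 7.37 in control and 7.62, 7.70, 7.27 and 7.36 in mutant arrays, a difference of 0.16 (95% interval -0.089 to 0.42, limma adjusted p = 0.765), with 0.31 from chip 1 and -0.050 from chip 2. Neither gene passed the test.

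Adam4, grouped here with the reproductive tract ADAMs, had the member probe of smallest p. ILMN_1235132 measured 4.53, 4.35 and 4.64 in control and 4.82, 4.69, 4.83 and 5.17 in mutant arrays. No mutant array reached down to the controls. Its difference of 0.33 (SE 0.12, 95% interval 0.085 to 0.58, unadjusted p = 0.0109) did not pass (limma adjusted p = 0.476), and chip 1 gave 0.31 and chip 2 0.36. The other Adam4 probes differed by 0.27 (SE 0.12, limma adjusted p = 0.583), with overlapping genotypes, and by 0.17 (SE 0.11, limma adjusted p = 0.721). The first probe was detected on 2 of 3 control and 4 of 4 mutant arrays. The others were detected on 1 of 3 control arrays each and on 3 and 4 mutant arrays, so they met the filter chiefly through the mutant arrays. In GRCm38.p6, Adam4 lies within Cox16, a gene of cytochrome oxidase assembly, which the array lists as 1810020G14Rik. The 3 probes of that gene, looked up after the Adam4 values were seen, differed by 0.23, 0.28 and 0.081 (limma adjusted p = 0.637, 0.556 and 0.889). The positions of the probes are not given in the sources used here, and a part of Cox16 transcripts in the Adam4 values was not tested.

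**Figure D4:**
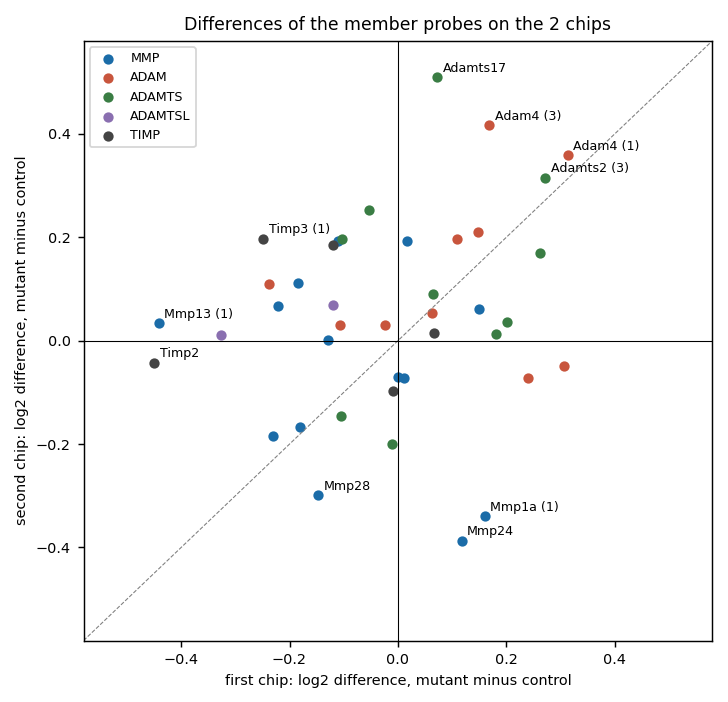
Log2 difference, mutant minus control, of each tested member probe on the first chip (horizontal axis) and on the second chip (vertical axis), with the dashed line where both are equal. The Adam4 and Adamts2 probes lie in the upper right, Timp2 and an Mmp13 probe differ on the first chip with values near 0 on the second, and 22 of the 41 probes had the same sign on both chips.

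The sign of the difference was the same on both chips for 22 of 41 member probes (53.7%), 14 higher and 8 lower, against 55.0% of all tested probes. The chips share no arrays, but the second rests on 1 control array.

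Among the ADAMTS proteases, Adamts2, which removes the amino-terminal propeptide of procollagen, had 3 tested probes with positive differences. ILMN_1226259 measured 4.16, 4.20 and 4.21 in control and 4.54, 4.37, 4.46 and 4.59 in mutant arrays. It was detected on 0 of 3 control and 4 of 4 mutant arrays, and the groups did not overlap. The fitted difference of 0.29 (SE 0.11, unadjusted p = 0.0160) did not pass (limma adjusted p = 0.504), with 0.27 from chip 1 and 0.31 from chip 2. This probe entered the fit through its mutant arrays alone. Set against the lowest signal among detected probes of each control array, its mean normalised intensity in mutant arrays was at least 1.06-fold higher. The probe was picked by this detection pattern, so a bound above 1 follows nearly from that choice and adds no test of the difference. Measured means were 4.19 in control and 4.49 in mutant arrays. The other Adamts2 probes differed by 0.23 (95% interval -0.035 to 0.49) and 0.11 (95% interval -0.13 to 0.36), with overlapping genotypes. The authors' deposited table gives ILMN_1226259 a q-value of 0.125, the lowest of the 49 member probes it lists, none of which it puts under 0.05 (0.0757% of all its probes are).

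Markers of mesenchyme and fibroblasts, cells that make procollagen, were read beside Adamts2, and limma called 0 of their 9 probes (lowest adjusted p 0.152). All 8 tested markers of 13 on the array had positive differences, from 0.0059 for Col1a2 to 1.26 for Col1a1, with a median difference of 0.23, a mean level of 5.70 to 5.87 in control and 5.91 to 6.35 in mutant arrays, and summed levels of 45.6 to 47.0 and 47.3 to 50.8. Pdgfrb, Twist1, Msx1 and Postn were detected on no array. The part of these cells in the Adamts2 values was not tested. Of the macrophage and leukocyte markers, 9 of 10 were positive, with mean levels of 4.73 to 4.97 in control and 4.93 to 5.26 in mutant arrays. A probe of Lyzs, lysozyme, rose by 0.74 (SE 0.12, limma adjusted p = 0.0443), and the other Lyzs probe stood at 0.27 (limma adjusted p = 0.541). The Lyzs call was lost wherever 0 probes of the array were called. Like the Yap1 call, the Cftr call given below was lost wherever 0 probes were called lower, median scaling included. Dental epithelium markers had a median difference of -0.0090 over 11 genes. Ameloblast markers, of the enamel-forming cells, had differences of both signs, with a mean level of 6.17, 6.64 and 6.24 on the control arrays and 6.69, 6.18, 6.87 and 7.40 on mutant replicates 1 to 4. The chloride channel gene Cftr fell by 0.97 (SE 0.18, limma adjusted p = 0.0455), while the enamel matrix genes Ambn and Enam stood at 1.12 and 0.90 and did not pass (limma adjusted p = 0.160 and 0.134). The part of these cells in the member values was not tested. Adamts3, the relative of Adamts2 that acts on procollagen II and on VEGF-C processing, differed by 0.075 (95% interval -0.16 to 0.31).

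The hyalectanases cut versican and aggrecan. Adamts4 differed by 0.14 (95% interval -0.13 to 0.40), Adamts1 by 0.017 (95% interval -0.23 to 0.26) and Adamts15 by -0.087 (95% interval -0.34 to 0.16), and Adamts5 had no probe on the array. Adamts17, a secreted protease linked to fibrillin microfibrils, measured 7.12, 7.02 and 6.41 in control and 7.42, 6.86, 6.76 and 7.09 in mutant arrays. The single control of the second chip was the lowest array, and the difference of 0.25 (SE 0.14, limma adjusted p = 0.677) came from 0.072 in chip 1 and 0.51 in chip 2. Adamts19 differed by -0.12 (95% interval -0.41 to 0.17). Of the ADAMTS-like proteins, which have no protease domain, Adamtsl4, a microfibril protein, differed by -0.19 (95% interval -0.53 to 0.15), with controls at 5.18, 4.44 and 4.76 and mutants at 4.73, 4.23, 4.61 and 4.94. The tested genes not given singly, Adam15, Adamts18, Adamtsl5, Mmp11, Mmp16 and Mmp1a, had differences from -0.078 to 0.069.

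Genes that activate, restrain or are cut by these proteases likewise gave no probe that passed. Limma called 0 of 21 probes of activators and surface regulators, with 1 higher and 2 lower at an unadjusted p under 0.05 and a median difference of 0.040. Over all tested probes 4.32% were higher and 3.69% lower at that p, which is the background for each list here. The tetraspanin genes Cd9, which binds several ADAMs, and Cd63, a TIMP1 partner, stood at -0.35 (SE 0.13) and 0.35 (SE 0.14). Their limma adjusted p-values were 0.476 and 0.506, and the other Cd63 probes stood at -0.23 and 0.14. The Cd63 probe at 0.35 measured 8.43 and 8.44 in mutant against 7.74 and 7.83 in control arrays of the first chip. On the second chip it measured 7.78 and 7.85 against 7.90. The 3 probes of the plasminogen activator system, whose plasmin activates MMP precursors, had a median of -0.13, with Plat, tissue plasminogen activator, at -0.29 (SE 0.11) and its inhibitor Serpine2 at 0.32 (SE 0.15). Over 12 probes of astacins and other metalloproteases the median was -0.082, with the membrane peptidase Mme at -0.31 (SE 0.12) and the procollagen C-proteinase Bmp1 at -0.24 (SE 0.12), whose other probes ran from -0.12 to 0.12. Over 11 probes of membrane serine proteases and their inhibitors it was 0.064, with a Tmprss13 probe at -0.32 (SE 0.12), the other at 0.064, and Tmprss4 at 0.22 (SE 0.11). These 3 lists together held 0 called probes, and at an unadjusted p under 0.05 their counts were 1 higher and 1 lower, 0 and 1, and 0 and 1.

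Among the proteins that ADAMs and MMPs release or degrade, 26 probes of shed ligands and receptors had a median of 0.034, 0 called and 3 higher at an unadjusted p under 0.05 (background 4.32%). They included Cdh1, E-cadherin, at 0.45 (SE 0.13, limma adjusted p = 0.375). On the first chip Cdh1 measured 9.17 and 9.33 in mutant against 8.47 and 8.71 in control arrays. On the second chip it measured 8.56 and 8.40 against 8.34, so the rise lay mostly on the first. Cd44, the hyaluronan receptor, stood at 0.33 (SE 0.11, limma adjusted p = 0.461), and its other probes ran from -0.17 to 0.23. The 30 probes of matrix substrates had a median of 0.041, 0 called and 3 higher (background 4.32%), with Col1a1, the collagen of bone and dentin and also one of the mesenchyme markers, at 1.26 (SE 0.26, limma adjusted p = 0.152).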

How the data were processed

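Each of the 7 samples gave 1 Illumina array, and the chip of each was read from the labels. The members and gene lists were chosen with earlier results of these data known. The authors deposited probe intensity values without normalization, per the file headers, with a detection p-value and a count of beads for each. They also deposited log2 values (median 6.61), adjusted for the array ID with ComBat as the table's name says, and their own comparison with p-values and q-values. The software and earlier steps are not given in the sources used here.

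Intensities were background-corrected with limma 3.58.1 in R 4.3.3 (normal-exponential convolution, negative controls inferred from detection p-values, offset 16, which compresses differences of dim probes), quantile normalised and taken to log2. Probes detected at p under 0.05 on at least 3 arrays were fitted with lmFit and eBayes, with genotype and chip as terms (4 residual and 15.5 prior degrees of freedom). P-values are two-sided. Group means are without the chip term. The fit was tested on simulated data with planted differences larger than any member difference, so that test does not cover differences of the members' size.

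Named are up to 10 members of smallest p in each direction, Timp1 to Timp4, Mmp2, Mmp9, Mmp13, Mmp14, Adam9, Adam10, Adam17, Adamts1, Adamts5, any tested member detected on every array of 1 genotype and none of the other, any with probes of opposite sign (none), and 2 genes of smallest p per related list. For matrix substrates 1 of these 2 is not reported here. Alternatives covered the filter, background, normalization, chip term, replicate block, weights, eBayes options, series matrix values and leaving out each array. Symbols matched RefSeq (GRCm38.p6) directly for 67 of 68 members and through an older symbol for 1, Adam6. Other marker lists had these median differences at 1 probe per gene: ameloblast 0.68, endothelial 0.084, Schwann cell and nerve 0.20, skeletal muscle 0.052, and macrophage and leukocyte 0.16.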

Additional observations from a re-analysis of the deposited data

Results flagged for a closer look

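Within the 4 mutant arrays, 5 of the 41 tested member probes had 1 array whose gap to its nearest neighbour exceeded Dixon's critical share of the range. Chance flags about 1 in 20 such groups. Mutant replicate 1 was low for the Adam4 probe ILMN_2971964, at 4.34 against 4.57 to 4.60 in the others, and low for Adamts18, at 5.53 against 5.88 to 5.94. Mutant replicate 2 was high for Adamts19, at 6.02 against 5.58 to 5.64, and high for Mmp28, at 4.57 against 4.46 to 4.48. Mutant replicate 3 was low for Mmp15, at 7.11 against 7.39 to 7.43.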

How the results depend on the processing

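The number of arrays limits these results, and the second chip rests on 1 control. Limma called 0 members under every alternative run (lowest adjusted p 0.265). Of 665 values of the 34 named probes, 626 had the reported sign. The alternatives reuse the same arrays or parts of them, so most of this agreement was built in. Between the chips, which share no arrays, 22 of 41 tested member probes (53.7%) had the same sign. Over all probes, the 9 calls became 0 with no detection filter, with no background correction, with offset 50 and with the series matrix values with or without a chip term, and 1 on the first chip alone. They ranged from 0 (control replicate 2, mutant replicate 1 or mutant replicate 3 left out) to 14 (control replicate 1 left out). Calls were 9 higher and 0 lower with median scaling and 11 higher and 2 lower on the second chip alone, against 5 and 4.

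Member probes at an unadjusted p under 0.05 numbered 1 of 23 when detection on all 7 arrays was required (8.18% over all probes), and 2 with no background correction (8.69%), with offset 50 (8.74%), on the first chip alone (6.72%) and with 1 probe per gene (8.08%), against 4 (8.00%). Leaving out 1 array gave 2 (without control replicate 1, 7.38%) to 6 (without control replicate 2, 7.10%). The member median was 0.051 with median scaling, where that of all probes was 0.068, and ran from -0.019 to 0.047 with 1 array left out. Detection at p under 0.01 kept 24 of 32 genes.

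Signs turned as follows, and the cause was not tested. Median scaling gave Adam17 0.078, Adam9 0.0027, Mmp14 0.10 and the Timp3 probes 0.051 and 0.017. The first chip alone gave Adamts1 -0.10, Mmp14 0.012, Mmp2 -0.11, Mmp24 0.12 and a Timp1 probe -0.12. The second chip alone gave Adam10 -0.072, Adam17 0.030, Adam23 -0.050, Adam9 0.11, Adamtsl4 0.011, an Mmp13 probe 0.033, Mmp23 0.067 and a Timp3 probe 0.20. With 1 array left out, the ranges that crossed 0 were -0.11 to 0.0094 for Adam17, -0.10 to 0.098 for Adamts1, -0.27 to 0.022 for Adamts19, -0.34 to 0.028 for Adamtsl4, -0.095 to 0.035 for Mmp14, -0.11 to 0.12 for Mmp2, -0.18 to 0.12 for Mmp24, -0.12 to 0.085 and -0.024 to 0.11 for the Timp1 probes, and -0.12 to 0.012 for a Timp3 probe.

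The replicate number as a block, which also holds the chip, gave 9 calls over all probes (7 higher, 2 lower), 0 members, and opposite signs for Adamts1 (-0.037), Mmp2 (-0.037) and a Timp1 probe (-0.041). Deviations of same-numbered samples correlated at -0.019, 0.16 and 0.15, and those of other control and mutant samples sharing a chip at -0.033, 0.11 and 0.076. Same-numbered samples also share a chip, so these values cannot settle whether they are pairs. The labels do not say so, and the numbers were not taken as pairs.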
